A study of Homo sapiens with 42 samples.

Results

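The death receptors and the caspase-8 machinery that they recruit were examined through 9 genes, FAS, TNFRSF10A, TNFRSF10B, TNFRSF1A, TNFRSF21, TNFSF10, FADD, CASP8 and CFLAR, chosen by name as rows of the raw count table, which held 28266 gene symbols. Death receptors are cell-surface proteins whose intracellular death domain, once a ligand has clustered the receptor, recruits the adaptor FADD. FADD brings in procaspase-8, which cuts itself, becomes active and goes on to cut the executioner caspases and BID, a link to the mitochondrial route of apoptosis. CFLAR encodes c-FLIP, a caspase-8 relative that takes its place in the complex and restrains it. In fibroblasts FAS and TNFRSF10B are known as targets of p53, and TNFRSF10B is also known as a target of CHOP, the transcription factor of the unfolded protein response that DDIT3 encodes.

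RNA came from 42 libraries of human lung fibroblasts in 12 groups. IMR90 is an established strain of fetal lung fibroblasts, and ER:RAS cells are IMR90 cells that carry an oestrogen receptor fusion of oncogenic RAS, which stays inactive until 4-hydroxytamoxifen (4OHT) is added. ER:RAS cells were treated with DMSO or with 4OHT at 100 nM, which leads to oncogene-induced senescence (OIS). IMR90 cells were treated with DMSO or with bleomycin, a DNA-damaging drug, at 50 µg/ml for 24 h. All groups were cultured for 7 days and then given doxycycline at 1 µg/ml for 72 h to induce a control shRNA, COPB2 shRNA 1 or COPB2 shRNA 2, and were collected at day 10, so the control shRNA cells had received doxycycline too. COPB2 is part of coatomer, the coat of the COPI vesicles that return from the Golgi to the endoplasmic reticulum. Each ER:RAS group held 3 libraries and each IMR90 group 4. The cells come from a single donor strain and the labels name the replicates only as separate samples, while the study describes its replicates as independent experiments. The p-values measure the spread between these libraries of 1 strain.

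Total counts ran from 13148194 to 23597310 per library. COPB2 stood at 267 to 620 CPM (reads of a gene relative to the scaled library size) in 14 control shRNA libraries and at 33.9 to 122 CPM in the 28 knockdown libraries, without overlap. The 7 fibroblast markers (COL1A1, COL1A2, COL3A1, DCN, PDGFRB, THY1 and VIM) summed to between 7823 and 27390 CPM per library, against at most 1.82 CPM for 3 epithelial markers (CDH1, EPCAM and SFTPC). The sum of 3 endothelial markers (CDH5, PECAM1 and VWF) was 8.65 to 13.7 CPM in the 4OHT libraries and 1.11 to 4.77 CPM elsewhere, with CDH5 at 0 in all 9 ER:RAS libraries with DMSO. The sum of 3 leukocyte markers (CD3E, MS4A1 and PTPRC) was 0.263 to 2.18 CPM after bleomycin and at most 0.507 CPM elsewhere, and the part of these marker levels in the results was not tested. Libraries also differed in how AT-rich and GC-rich genes were represented. Each gene's log2 level was taken as its deviation from its mean over libraries. The median deviation of the fifth of genes lowest in GC content minus that of the fifth highest ran from -2.13 to 1.09 on the log2 scale. In bulk RNA, fewer cells with a transcript and less of it per cell cannot be told apart.

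All 9 genes passed the filter on low counts in the fits of both cell lines. Per kilobase of merged exons and averaged over all libraries, the receptors TNFRSF10B and TNFRSF1A stood highest, at 68.9 and 57.7 CPM per kb. FADD followed at 37.3, TNFRSF21 at 17.9 and FAS at 10.7 CPM per kb. TNFRSF10A, CFLAR and CASP8 lay between 2.34 and 3.85 CPM per kb, where the 22478 bases of merged exons annotated for CFLAR lower its value. The ligand TNFSF10 was lowest, at 0.265 CPM per kb, with 2 to 48 counts per library. TNFSF10 was the lowest of the 9 in each of the 4 cell states.

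**Figure D1:**
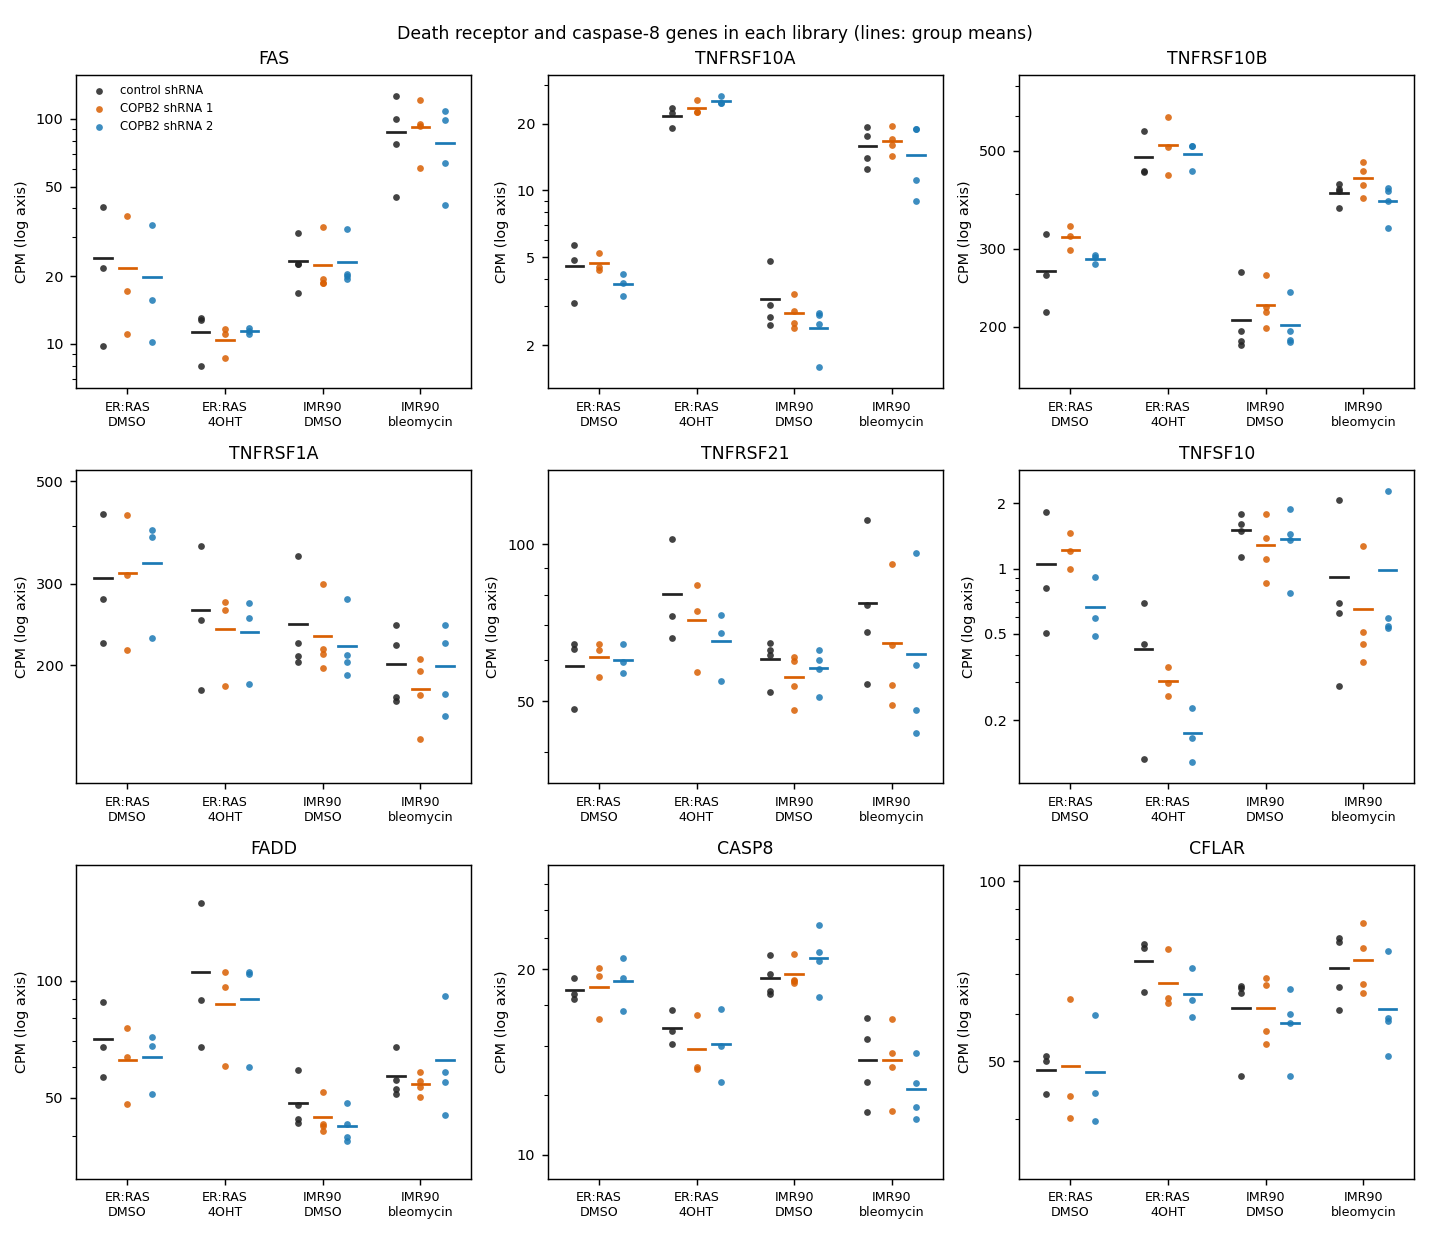
Level of the 9 genes in each of the 42 libraries, in CPM on a log axis, with 1 panel per gene. Points are libraries in the 4 cell states, coloured by shRNA, and lines are group means. TNFRSF10A and TNFRSF10B sit higher in both senescent states. FAS rises with bleomycin from 16.9 to 33.2 CPM up to 41.5 to 126 CPM but lies at 7.94 to 13.1 CPM with 4OHT. Within each state the colours mostly overlap. With 4OHT, TNFRSF10A lies at 24.7 to 26.7 CPM with COPB2 shRNA 2 and at 19.2 to 23.5 CPM with the control shRNA. The COPB2 shRNAs do not overlap each other for TNFRSF10A, TNFRSF10B and TNFSF10 in ER:RAS DMSO or for TNFSF10 with 4OHT.

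The first question was how these genes differed between senescent and DMSO-treated cells that carried the control shRNA. Both TRAIL receptors, TNFRSF10A and TNFRSF10B, rose in both models. FAS rose only after bleomycin by the test, and its response differed between the models. CASP8 fell after bleomycin. In OIS 2 of the 9 genes were called, both higher, at an adjusted p-value under 0.05 in the quasi-likelihood test of edgeR with Benjamini-Hochberg adjustment over all genes, where 35.7% of the 14297 genes tested were called (15.5% of them higher and 20.2% lower). After bleomycin 4 of the 9 were called, 3 higher and 1 lower, against 31.2% of the 14783 genes tested (15.4% higher and 15.8% lower). The share of members called in OIS was below that of all genes and the share after bleomycin was above it, on 9 genes. Their median log2 fold change was 0.38 in OIS and 0.20 after bleomycin, beside -0.08 and -0.01 over all genes.

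FAS encodes CD95, the receptor for FAS ligand, and lies on the plus strand of chromosome 10 (ENSG00000026103, GRCh37, chr10:90750414-90775542). RefSeq promoters, which are 250 bases before to 50 after an annotated transcript start (GRCh38.p14), matched 7 of the 9 genes, and 2 of the 3 FAS promoters are shown because FAS is the gene whose response differed between the models. Capitals mark motif matches on either strand, first an NF-kB site that starts at base 94 and then a decamer of the p53 motif that starts at base 129, and the upstream promoter holds neither. The motifs do not overlap there.
FAS upstream start, plus strand, chr10:88990548-88990847: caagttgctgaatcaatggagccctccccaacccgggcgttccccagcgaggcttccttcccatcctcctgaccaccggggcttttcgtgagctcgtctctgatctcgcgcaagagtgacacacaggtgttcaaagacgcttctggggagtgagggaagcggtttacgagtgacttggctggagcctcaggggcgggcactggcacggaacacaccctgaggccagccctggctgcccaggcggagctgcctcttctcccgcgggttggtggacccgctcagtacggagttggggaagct
FAS downstream start, plus strand, chr10:88991181-88991480: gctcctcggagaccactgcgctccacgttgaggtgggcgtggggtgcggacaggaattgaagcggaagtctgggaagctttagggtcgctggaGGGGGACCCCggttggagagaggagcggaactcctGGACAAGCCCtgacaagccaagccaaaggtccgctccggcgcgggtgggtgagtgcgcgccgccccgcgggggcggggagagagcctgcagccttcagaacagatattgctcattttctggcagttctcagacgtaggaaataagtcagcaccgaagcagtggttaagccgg
Matches to this p53 decamer occurred in 6.65% of 34796 distinct promoters of this length and matches to the NF-kB site in 11.3%, so a match is a description of the letters and not of binding.

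In IMR90, FAS was at 16.9, 22.6, 30.97 and 22.8 CPM with DMSO and at 77.6, 44.9, 126 and 99.8 CPM after bleomycin. Every library with bleomycin lay above every DMSO library. With the control shRNA the log2 fold change was 1.86 (SE 0.316, adjusted p = 0.00011, edgeR), a 3.635-fold higher level. It was 2.00 and 1.73 with COPB2 shRNA 1 and 2. In ER:RAS cells the libraries with DMSO were at 21.8, 9.82 and 40.7 CPM and those with 4OHT at 7.94, 12.8 and 13.1 CPM. The DMSO libraries were widely spread and overlapped the 4OHT libraries. The log2 fold change of -1.21 (SE 0.561, 95% interval -2.41 to -0.02) did not pass, with an adjusted p of 0.110 in edgeR, nor did -1.16 and -0.89 with the COPB2 shRNAs. Averaged over the 3 shRNA groups, an alternative chosen after seeing the data, FAS fell by 1.09 on the log2 scale in OIS (SE 0.323, adjusted p = 0.00898, edgeR). That test took same-numbered libraries as independent, although replicate 3 with DMSO had 33.8 to 40.7 CPM over all 3 shRNAs.

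Levels of FAS, whose longest annotated transcript has a GC content of 39.1%, moved with the GC representation of the libraries. In ER:RAS cells with DMSO the replicate 3 libraries, where AT-rich genes were better represented (0.573 to 0.891 on the log2 scale above), had 33.8 to 40.7 CPM of FAS. The other 6 DMSO libraries, at -1.86 to -0.11 on that scale, had 9.82 to 21.8 CPM. With 4OHT the replicate 3 libraries lay at 0.580 to 0.644 and had 11.6 to 13.1 CPM of FAS, below those with DMSO. DMSO libraries at -1.861, -1.815 and -1.723 had 10.18, 9.82 and 11.06 CPM, within the 4OHT range of 7.94 to 13.1 CPM. DMSO libraries at -1.28, -0.726 and -0.109 had 15.7, 17.2 and 21.8 CPM. How far GC representation accounts for the difference in FAS was not tested. A correction for GC content and length, added after seeing the data, gave -0.99 for FAS in OIS (adjusted p = 0.0018, edgeR). Leaving out the DMSO control shRNA replicate 3 gave -0.51 (adjusted p = 0.530), leaving out the DMSO control shRNA replicate 2 gave -1.54 (adjusted p = 0.0367), and both come from edgeR. ACTA2 overlaps FAS on the opposite strand, was at 120 to 639 CPM and fell in both models, by 1.19 in OIS (adjusted p = 0.00262) and by 0.81 after bleomycin (adjusted p = 0.0386) on the log2 scale in edgeR. Whether the counting used strand is not stated, and the share of ACTA2 reads in the FAS counts was not tested.

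**Figure D2:**
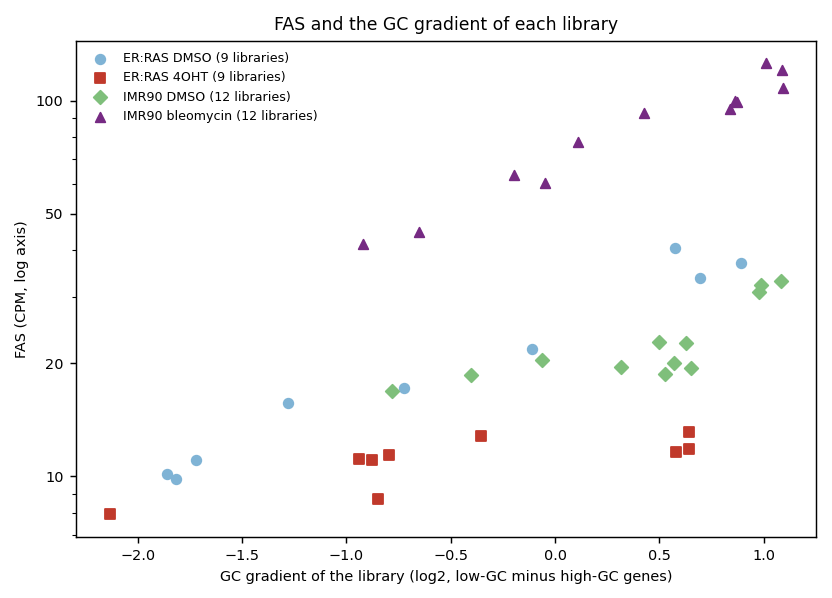
FAS level in CPM, on a log axis, against the GC representation of each of the 42 libraries. It is the median log2 deviation from gene means of the fifth of genes lowest in GC content minus that of the fifth highest. Points are coloured by the 4 cell states. The bleomycin libraries, at 41.5 to 126 CPM, lie above all others along the axis, and the ER:RAS libraries with DMSO reach 40.7 CPM at the right while those with 4OHT stay between 7.94 and 13.1 CPM.

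TNFRSF10A encodes DR4, a receptor for TRAIL, and lies on the minus strand of chromosome 8 (ENSG00000104689, GRCh37, chr8:23047965-23082615). Its level was 4.84, 3.10 and 5.68 CPM in the ER:RAS libraries with DMSO and 22.5, 19.2 and 23.5 CPM with 4OHT. In IMR90 it was 4.79, 2.48, 3.03 and 2.69 CPM with DMSO and 19.3, 12.6, 17.7 and 14.1 CPM after bleomycin. The senescent libraries lay above every DMSO library in both lines. The log2 fold change was 2.14 (SE 0.255, adjusted p = 9.94e-06, edgeR) in OIS, a 4.42-fold higher level, and 2.27 (SE 0.259, adjusted p = 1.17e-06, edgeR) after bleomycin. It was called with both COPB2 shRNAs as well, at 2.24 and 2.67 in OIS and 2.55 with each shRNA after bleomycin. Over the 9 or 12 libraries of each state, whatever the shRNA, it ran from 3.10 to 5.68 CPM in ER:RAS DMSO, 19.2 to 26.7 CPM with 4OHT, 1.60 to 4.79 CPM in IMR90 DMSO and 8.94 to 19.5 CPM after bleomycin.

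TNFRSF10B encodes DR5, the other signalling TRAIL receptor, and lies near TNFRSF10A on the minus strand of chromosome 8 (ENSG00000120889, GRCh37, chr8:22877646-22926544). It was already abundant in DMSO-treated cells, at 262, 325 and 216 CPM in ER:RAS and 266, 182, 195 and 186 CPM in IMR90. With 4OHT it was at 554, 448 and 449 CPM and after bleomycin at 405, 422, 371 and 409 CPM. Again no senescent library overlapped the DMSO libraries of its line. The log2 fold change was 0.76 (SE 0.152, adjusted p = 0.00102, edgeR) in OIS and 0.93 (SE 0.139, adjusted p = 2.8e-05, edgeR) after bleomycin. The call in OIS was lost when only the 6 libraries compared were fitted, at 0.78 with an adjusted p of 0.104. With COPB2 shRNA 1 and 2 it rose by 0.61 and 0.71 in OIS, called in 13 of 13 alternatives each, and by 0.91 and 0.89 after bleomycin on the log2 scale. RHOBTB2 overlaps the gene on the opposite strand, and its level of 23.7 to 63.9 CPM was far below that of TNFRSF10B in every library.

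TNFRSF1A, the main receptor for TNF, and TNFRSF21, the orphan death receptor DR6, were called in neither model with the control shRNA. TNFRSF1A (ENSG00000067182, GRCh37, chr12:6437923-6451280, minus strand) was at 279, 424 and 223 CPM in ER:RAS DMSO and 362, 251 and 177 CPM with 4OHT, and at 345, 209, 204 and 224 CPM in IMR90 DMSO and 221, 244, 171 and 167 CPM after bleomycin. The groups overlapped in both lines, and neither -0.33 (adjusted p = 0.426) nor -0.31 (adjusted p = 0.266) on the log2 scale passed in edgeR. After correcting for GC and length TNFRSF1A was called lower in both models with all 3 shRNAs, where the control shRNA gave -0.41 (adjusted p = 0.00585, edgeR) in OIS, and -0.32 (adjusted p = 0.00901, edgeR) with bleomycin. Averaged over the shRNA groups it fell by 0.46 in OIS (adjusted p = 0.0275) and by 0.31 after bleomycin (adjusted p = 0.0292) on the log2 scale in edgeR, but with DESeq2 size factors neither passed, at adjusted p-values of 0.128 and 0.0645. The OIS call held in 8 of 25 alternatives and the bleomycin call in 22 of 31. TNFRSF21 (ENSG00000146072, GRCh37, chr6:47199268-47277641, minus strand) was at 64.5, 62.9 and 48.3 CPM in ER:RAS DMSO and 66.1, 72.8 and 103 CPM with 4OHT. After bleomycin it was at 67.8, 76.5, 53.8 and 111 CPM beside 61.4, 64.7, 52.2 and 62.6 CPM with DMSO. It was not called in either model with any shRNA, and the replicate 4 libraries after bleomycin stood apart with 111, 91.8 and 96.2 CPM for the 3 shRNAs.

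TNFSF10 encodes TRAIL, the ligand of the receptors that rose, and lies on chromosome 3 (ENSG00000121858, GRCh37, chr3:172223298-172241265, minus strand). It had 16, 8 and 38 counts in the ER:RAS libraries with DMSO and 5, 2 and 11 counts with 4OHT. In IMR90 it had 25, 35, 23 and 34 counts with DMSO and 13, 5, 12 and 40 counts after bleomycin. These are levels near the floor of 3 counts, which is 0.110 to 0.271 CPM depending on the library, and 4 libraries with 4OHT were at or under it. The ratio of summed counts per scaled library, senescent over DMSO, was 0.389 in OIS (exact 95% interval 0.216 to 0.665, for counting error only) and 0.622 after bleomycin (0.456 to 0.843). Over replicates the log2 fold change was -1.40 (SE 0.552, adjusted p = 0.060, edgeR) in OIS and -0.73 (adjusted p = 0.313, edgeR) after bleomycin, and neither passed. Leaving out 1 library moved the OIS value between -1.99 and -0.65. It was called without the DMSO control shRNA replicate 2 (-1.68, adjusted p = 0.0249), without the 4OHT control shRNA replicate 3 (-1.99, adjusted p = 0.0249) and in 5 of 13 alternatives in all, the GC and length correction among them (-1.23, adjusted p = 0.0315, edgeR).

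With the COPB2 shRNAs TNFSF10 was called lower in OIS, by 2.08 (adjusted p = 0.00868) and 2.01 (adjusted p = 0.0208) on the log2 scale in edgeR. The libraries with 4OHT had 5, 4 and 5 counts with shRNA 1 and 3, 2 and 3 counts with shRNA 2, where all were at or under the floor. The ratio of summed counts there was 0.242 (exact 95% interval 0.126 to 0.432) and 0.246 (0.0983 to 0.541), for counting error only. The call with shRNA 1 held in 13 of 13 alternatives and that with shRNA 2 in 9 of 12, lost without the shRNA 2 libraries of 4OHT replicate 2 or 3 or of DMSO replicate 3. Averaged over the 3 shRNA groups it fell by 1.83 in OIS (SE 0.337, adjusted p = 0.000228, edgeR), a call that held in 25 of 25 alternatives. After bleomycin that average was -0.73 (adjusted p = 0.0407, edgeR) and the call held in 15 of 31. The replicate 4 libraries after bleomycin were again high, at 2.07, 1.27 and 2.28 CPM against 0.287 to 0.690 CPM in the other 9, and without the control shRNA replicate 4 the change was -1.49 (adjusted p = 0.0368, edgeR).

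FADD, the adaptor, lies on chromosome 11 (ENSG00000168040, GRCh37, chr11:70049402-70053496, plus strand). It was at 56.7, 88.1 and 67.5 CPM in ER:RAS DMSO and 159, 89.2 and 67.5 CPM with 4OHT, and at 58.9, 43.2, 47.9 and 44.1 CPM in IMR90 DMSO and 55.7, 67.7, 51.2 and 52.6 CPM after bleomycin. The groups overlapped, and the log2 fold changes of 0.46 and 0.20 did not pass, with adjusted p-values of 0.240 and 0.402 in edgeR. With COPB2 shRNA 2 FADD was called after bleomycin, at 0.51 (adjusted p = 0.0181, edgeR), which held in 9 of 15 alternatives. It was lost after correcting for GC and length (0.05), with only the libraries compared, and without the shRNA 2 libraries of DMSO replicate 2 or 4 or of bleomycin replicate 2, where leaving out 1 library gave 0.30 to 0.64. Averaged over the shRNA groups it rose by 0.43 in OIS (adjusted p = 0.0378) and by 0.32 after bleomycin (adjusted p = 0.00656) on the log2 scale in edgeR. The first of these calls held in 16 of 25 alternatives, the second in 31 of 31.

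CASP8, the initiator caspase, and CFLAR, its inhibitor, lie on the plus strand of chromosome 2 (GRCh37, CFLAR chr2:201980877-202041410 and CASP8 chr2:202098166-202226559), with the paralogue CASP10 between them. CASP8 was at 19.6, 18.4, 21.1 and 18.3 CPM in IMR90 DMSO and at 11.7, 16.7, 15.4 and 13.1 CPM after bleomycin. The groups did not overlap, and CASP8 fell by 0.48 on the log2 scale (SE 0.13, adjusted p = 0.00726, edgeR), and by 0.50 and 0.75 with the COPB2 shRNAs. The call was lost when only the 8 libraries compared were fitted (-0.44, adjusted p = 0.0797) and without the bleomycin control shRNA replicate 1 (-0.38, adjusted p = 0.0553), whereas the average over the shRNA groups of -0.58 held in 31 of 31 alternatives. In ER:RAS it was at 19.4, 17.9 and 18.2 CPM with DMSO and 15.9, 17.2 and 15.1 CPM with 4OHT. These groups were also separate, but the log2 fold change of -0.31 did not pass (adjusted p = 0.233, edgeR). The OIS average of -0.38 did (adjusted p = 0.00682, edgeR) and was lost after correcting for GC and length (-0.24, adjusted p = 0.281).

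CFLAR was at 50.0, 44.1 and 51.0 CPM in ER:RAS DMSO and 77.3, 65.3 and 78.6 CPM with 4OHT. No library with 4OHT overlapped those with DMSO, yet the log2 fold change of 0.51 (SE 0.232) had an adjusted p of 0.106 in edgeR. DESeq2 size factors gave a call (0.64, adjusted p = 0.0243), as did the GC and length correction (0.94, adjusted p = 0.0023), and the average over the shRNA groups was 0.41 (adjusted p = 0.0157, edgeR). In IMR90 it was at 47.1, 66.3, 66.9 and 65.1 CPM with DMSO and 66.4, 60.8, 80.4 and 79.03 CPM after bleomycin, which overlapped, with a log2 fold change of 0.19 (adjusted p = 0.396, edgeR). The GC and length correction gave a call there too (0.28, adjusted p = 0.0154, edgeR), and also with COPB2 shRNA 1 (0.23) and shRNA 2 (0.37).

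Averages over the control and both COPB2 shRNA groups triple the libraries of a comparison and were chosen after seeing the data. Their test takes these libraries as independent, although same-numbered libraries of a line often deviated together (median r = 0.708 in ER:RAS and 0.49 in IMR90). In the averages 8 of the 9 genes were called in OIS, 4 higher and 4 lower. Over all genes this share was 58.7%. After bleomycin 7 of the 9 were called, 4 higher and 3 lower, against 59.0% of all genes. In both models TNFRSF10A, TNFRSF10B and FADD rose and TNFRSF1A, TNFSF10 and CASP8 fell in these averages, while FAS fell in OIS and rose after bleomycin and CFLAR rose in OIS. With COPB2 shRNA 1 alone 3 members were called in OIS (36.9% of all genes) and 4 after bleomycin (35.2%), and with COPB2 shRNA 2 alone 3 (36.9%) and 5 (5915 of 14783 genes).

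For the COPB2 shRNAs in OIS the replicate numbers paired the libraries, since same-numbered DMSO and 4OHT libraries deviated together (r = 0.652 to 0.875 with shRNA 1 and 0.706 to 0.875 with shRNA 2, across genes and 3 pairs each). With the replicate number as a block 7 members were called with shRNA 1, beside 7612 of 14297 genes. FAS (-0.99, adjusted p = 0.0404), TNFRSF1A (-0.46, adjusted p = 0.0259) and CASP8 (-0.42, adjusted p = 0.0373) were then called lower and CFLAR (0.40, adjusted p = 0.0444) higher in edgeR. With shRNA 2 the block called 5 members, beside 7588 of 14297 genes, and added TNFRSF1A (-0.55, adjusted p = 0.0103) and CASP8 (-0.41, adjusted p = 0.0391). No such pairing held for the control shRNA in OIS or for any shRNA after bleomycin.

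**Figure D3:**
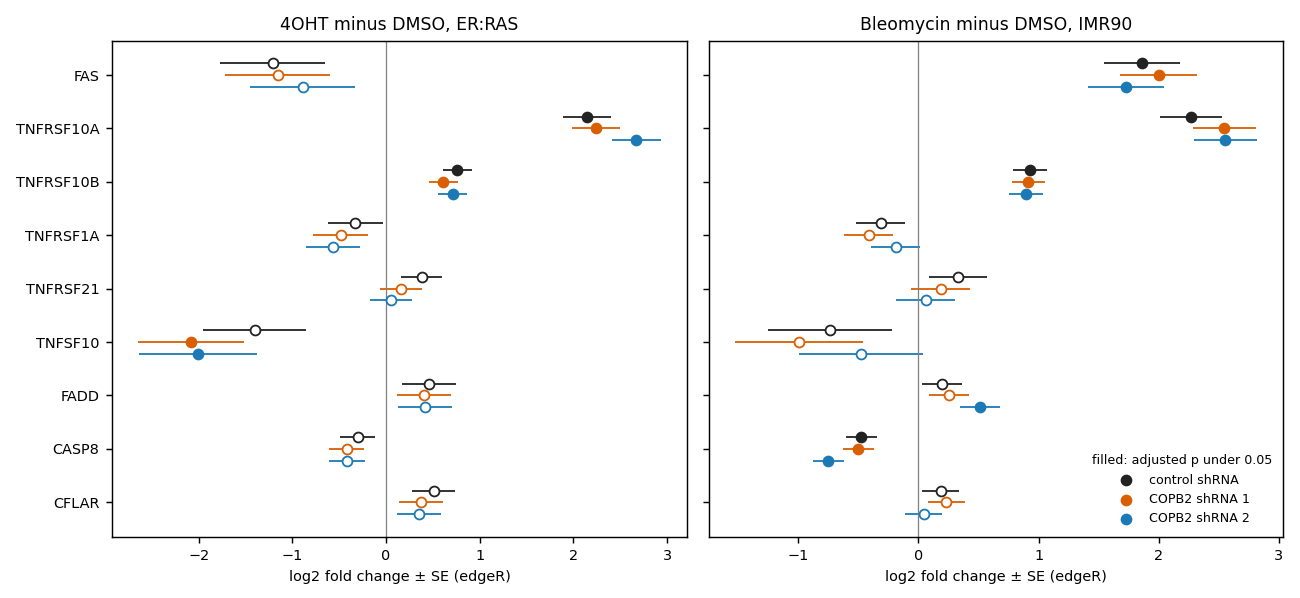
Log2 fold change of each gene between senescent and DMSO-treated cells, with bars for the standard error in edgeR, in OIS and after bleomycin and for the 3 shRNAs. Filled symbols have an adjusted p under 0.05. TNFRSF10A is near 2.14 to 2.67 in all 6 comparisons, while FAS is at -1.21 to -0.89 in OIS and 1.73 to 2.00 after bleomycin.

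The second question was whether the 2 senescence models differed. OIS was studied only in ER:RAS cells and bleomycin only in IMR90 cells, so model and cell line cannot be told apart. In a fit of all 42 libraries the response in OIS minus that after bleomycin, with the control shRNA, was called for 1 member, FAS, and for 20.3% of the 15299 genes tested. The difference for FAS was -2.99 on the log2 scale (SE 0.601, 95% interval -4.21 to -1.77, adjusted p = 0.000378, edgeR), and it was called in 21 of 21 alternatives, between -3.36 and -2.38. ACTA2 on the other strand differed by -0.30 (adjusted p = 0.730, edgeR). For the TRAIL receptors the difference was -0.04 (95% interval -0.72 to 0.64) for TNFRSF10A and -0.10 (-0.52 to 0.32) for TNFRSF10B, intervals that leave room for differences of either sign. For the other 6 genes it lay between -0.61 for TNFSF10 and 0.38 for CFLAR, and CFLAR was called after correcting for GC and length (0.68, adjusted p = 0.0213, edgeR). DMSO-treated ER:RAS and IMR90 cells with the control shRNA did not differ by the test in any member, where 0.346% of genes were called. Unadjusted p-values were under 0.05 for TNFRSF10B (0.37 higher in ER:RAS on the log2 scale) and FADD (0.55 higher).

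The third question was what COPB2 knockdown did to these genes in each of the 4 cell states. No member was called in any of the 8 comparisons of a COPB2 shRNA with the control shRNA, and no unadjusted p-value was under 0.05 among the 72 values. No member was called by the Wald test of DESeq2 or under any other alternative either. Few genes of any kind were called. In DMSO-treated cells COPB2 alone was called with each shRNA (0.00699% of genes in ER:RAS and 0.00676% in IMR90), in OIS 0.14% with shRNA 1 and 0.224% with shRNA 2, and after bleomycin 0.00676% and 0.0744%. The median log2 fold change of the members was -0.14 and -0.17 in OIS, beside -0.07 and -0.08 over all genes, and 0.01 and -0.12 after bleomycin, beside 0.01 and 0.01.

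The intervals set how large a change this fit could have missed. The fit had no replicate block, so spread shared by same-numbered libraries of different shRNAs stays in the intervals. FAS after bleomycin, over the 3 shRNAs, was at 41.5 to 60.6 CPM in replicate 2 and at 108 to 126 CPM in replicate 3. TNFRSF10B changed by -0.06 to 0.23 on the log2 scale over the 8 comparisons, with 95% intervals from -0.34 to 0.55. With 4OHT its level was 554, 448 and 449 CPM with the control shRNA, 595, 510 and 441 CPM with COPB2 shRNA 1 and 514, 513 and 450 CPM with COPB2 shRNA 2. All 3 groups overlapped, with log2 fold changes of 0.08 (95% interval -0.24 to 0.40) and 0.01 (-0.31 to 0.33). In the same libraries DDIT3, which encodes CHOP, was at 29.6, 25.6 and 27.1 CPM with the control shRNA, 106, 118 and 234 CPM with shRNA 1 and 124, 138 and 233 CPM with shRNA 2. DDIT3 rose by 2.49 (adjusted p = 0.00822) and 2.59 (adjusted p = 0.00471) on the log2 scale in edgeR. Among other readouts of the unfolded protein response, ATF4 had means of 208, 421 and 494 CPM in these groups, in the same order. TRIB3 had means of 320, 436 and 491 CPM, and CHAC1 of 76.4, 120 and 141 CPM. Whether CHOP acted on TNFRSF10B was not tested. With only the libraries compared no gene was called for either shRNA in OIS, DDIT3 included. After bleomycin DDIT3 rose by 1.17 with shRNA 2 (adjusted p = 0.00241, edgeR), where TNFRSF10B was at -0.06 (95% interval -0.34 to 0.23). That call too was lost with only the libraries compared, where no gene was called higher. With shRNA 1 after bleomycin DDIT3 was not called, at a mean of 47.3 CPM against 30.8 CPM with the control shRNA.

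CASP8 changed by -0.15 to 0.12 on the log2 scale over the 8 comparisons (intervals from -0.52 to 0.41), CFLAR by -0.22 to 0.05 (-0.70 to 0.49) and FADD by -0.27 to 0.14 (-0.88 to 0.48). TNFRSF10A changed by -0.41 to 0.21 (-0.95 to 0.73) and TNFRSF1A by -0.17 to 0.08 (-0.78 to 0.69). With shRNA 2 in OIS, at 0.21, the TNFRSF10A libraries lay above those with the control shRNA (24.7 to 26.7 against 19.2 to 23.5 CPM), without a call. TNFRSF21 changed by -0.32 to 0.03 (-0.82 to 0.50). All of these intervals lie within 1 log2 unit of 0. FAS was less precise, at -0.32 to 0.09 with intervals from -1.50 to 1.18. TNFSF10 was least precise, at -1.30 to 0.16 with intervals from -2.73 to 1.24. Its smallest unadjusted p-value, 0.0701 in edgeR for shRNA 2 in OIS, was the smallest of any member, at -1.30 and with 8 counts in all against 18 with the control shRNA.

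The knockdown effect in senescent cells minus that in their DMSO-treated counterparts was tested as a contrast of its own, for each shRNA in each model. None of the 36 values of the members was called in edgeR, and none had an unadjusted p-value under 0.05, the smallest being 0.150 for CASP8. No gene of any kind was called in these 4 differences (0.0% of genes), while 194 and 263 genes in OIS and 121 and 285 after bleomycin had an unadjusted p-value under 0.05. The Wald test of DESeq2 called 8 and 12 genes in the 2 differences in OIS. The members' differences ran from -0.68 to 0.53 on the log2 scale, with intervals from -2.36 to 1.99.

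**Figure D4:**
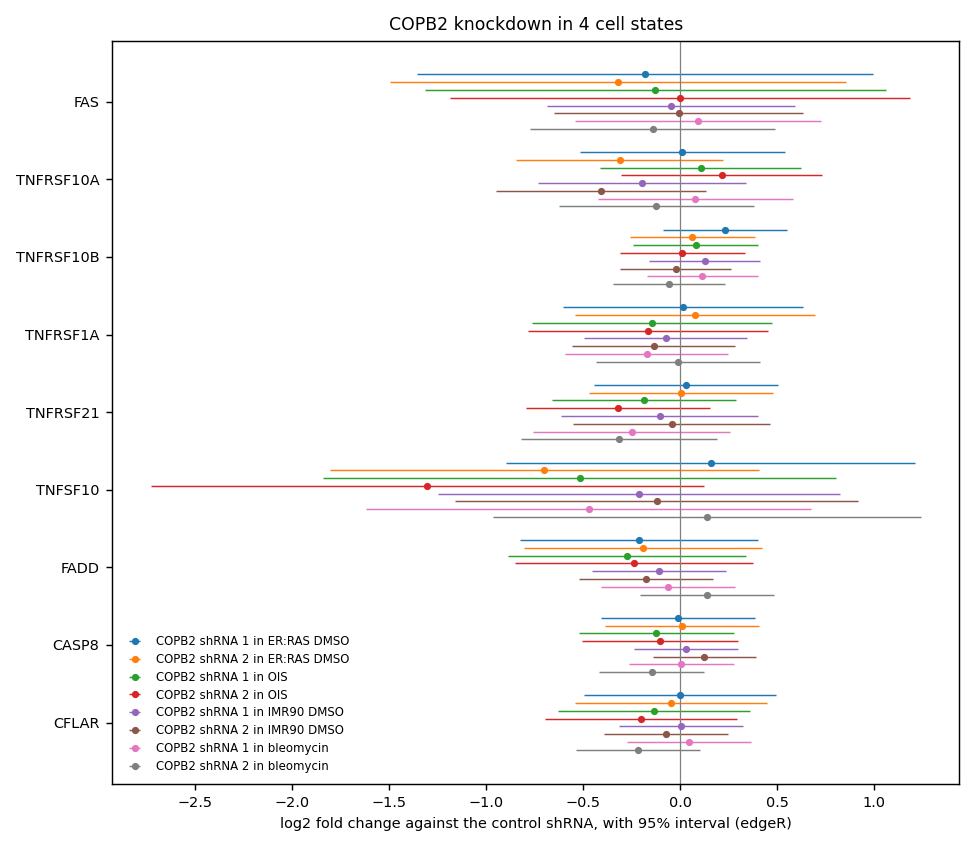
Log2 fold change of each gene between cells with a COPB2 shRNA and cells with the control shRNA, with 95% intervals of the edgeR fit as bars, in the 4 cell states and for both shRNAs. All 72 intervals cross 0. Those of TNFRSF10B stay within -0.34 to 0.55 and those of TNFSF10 reach from -2.73 to 1.24.

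Of 35 other genes of death receptor signalling, 29 could be tested, and the ligands FASLG, TNF and LTA were filtered out for low counts. With the control shRNA 4 were called higher and 1 lower in OIS (median log2 fold change 0.34), and 5 higher and 3 lower after bleomycin (median 0.13). These 5 and 8 of 29 genes stand beside 35.7% and 31.2% of all genes tested, so the share called was no higher than over all genes in either model. The TRAIL decoy receptors, which bind TRAIL without passing on a death signal, rose beside the signalling receptors. TNFRSF10D went from a mean of 150 to 1805 CPM in OIS (3.49 on the log2 scale, adjusted p = 7.6e-09, edgeR) and from 109 to 430 CPM after bleomycin (1.95, adjusted p = 1.68e-09). TNFRSF10C went from 3.90 to 31.1 CPM after bleomycin (2.96, adjusted p = 3.6e-09, edgeR) and was at 7.60 CPM in OIS against 5.65 CPM (adjusted p = 0.280). TNFRSF11B, a soluble decoy, rose after bleomycin by 1.31 (adjusted p = 0.00679, edgeR) on the log2 scale. TNFRSF10A, TNFRSF10B, TNFRSF10C and TNFRSF10D are neighbouring paralogues, so reads that fit more than 1 of them make these counts less certain.

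Among the genes downstream, BID rose in both models, by 1.97 in OIS (adjusted p = 0.00028) and by 1.00 after bleomycin (adjusted p = 0.000367) on the log2 scale in edgeR. CASP6, an executioner caspase, fell in both, by 1.54 (adjusted p = 0.000282) and 0.74 (adjusted p = 0.00169). TNFAIP3, which encodes the NF-kB feedback inhibitor A20, and MLKL, the effector of necroptosis, were called higher in OIS (1.97, adjusted p = 9.76e-05, and 2.65, adjusted p = 5.92e-06, edgeR). NGFR rose after bleomycin by 2.17 (adjusted p = 0.00544, edgeR) at a mean of 2.23 CPM. FAF1, which binds FAS, and DEDD, which carries a death effector domain, fell there by 0.52 (adjusted p = 0.000891) and 0.55 (adjusted p = 0.0121). In the knockdown comparisons none of the 29 was called.

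Among the readouts of p53, CDKN1A rose in both models (2.48 and 2.58 on the log2 scale), and so did GDF15 (3.90 and 3.10). MDM2, another p53 target, was at -0.66 in OIS (adjusted p = 0.529, edgeR) and 1.42 after bleomycin (adjusted p = 0.00257, edgeR). The difference of the responses of MDM2 was -2.02 (SE 0.725, adjusted p = 0.0444, edgeR).

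Across the 12 groups most neighbours in the order of mean levels overlapped. For FAS the one gap lay between the bleomycin groups (78.1 CPM and above) and all others (24.1 CPM and below). TNFRSF10A had its gap between the senescent groups of both lines (14.5 CPM and above) and the DMSO groups (4.71 CPM and below). For CASP8 the gap lay between ER:RAS cells with DMSO (18.5 CPM) and with 4OHT (16.1 CPM), both with the control shRNA. For TNFRSF10B it lay within ER:RAS DMSO, between COPB2 shRNA 1 (319 CPM) and shRNA 2 (285 CPM). For TNFSF10 it lay between COPB2 shRNA 1 (0.302 CPM) and shRNA 2 (0.174 CPM) with 4OHT, near the floor. TNFRSF1A, TNFRSF21, FADD and CFLAR had none. How often other genes have such gaps was not counted. Over the 12 group means of log2 CPM, which share libraries and depth, genes most alike to FAS included ABCG2 (Pearson r = 0.995) and PAPPA (0.991). Those most alike to TNFRSF10A were ITGA3 (0.995), B4GALNT2 (0.995) and F11R (0.993), and to TNFRSF10B they were PPME1 (0.992), TMED4 (0.985) and TMEM63B (0.983). For CASP8 they were LDB2 (0.987), N4BP3 (0.981) and SNAI2 (0.981), and for CFLAR they were ZBTB25 (0.971), MID2 (0.965) and PUS7 (0.962). FADD was closest to HSP90AB1 (0.998), TNFRSF1A to UBOX5 (0.983), TNFSF10 to PLK4 (0.971) and TNFRSF21 to BRI3BP (0.914).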

How the data were processed

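Poly(A) RNA of 42 libraries was measured as raw counts, deposited by the authors as whole numbers of reads for each gene symbol without any normalization. The study's methods name directional single-end libraries, Tophat alignment to hg19, an Ensembl annotation and HTSeq, whereas the submitters' processing notes name hg38, DRAGEN, STAR 2.7.8a and DESeq2 1.32.0, so the build and aligner behind the table are not settled. Coordinates, exon lengths and GC content come from a GENCODE annotation on GRCh37 by symbol (25055 symbols matched) and promoters from RefSeq tables on GRCh38.p14.

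Libraries were grouped by their labels. Genes were filtered with filterByExpr, scaled with TMM factors and tested with the two-sided quasi-likelihood F-test (robust) of edgeR 4.0.16 in R 4.3.3, with Benjamini-Hochberg adjustment over all genes tested and calls at an adjusted p-value under 0.05. The groups of a cell line shared 1 fit, and a fit of all 42 libraries served comparisons between lines. CPM values are counts relative to the TMM-scaled library size of the latter fit. The code was tested on simulated counts. Depth of 13148194 to 23597310 counts puts 3 counts at 0.110 to 0.271 CPM on the scaled libraries. Reads carry no molecular identifiers, so floors and counting intervals cover counting error only.

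All 9 members were named, other pathway genes only where a senescence or knockdown comparison called them, and readouts of p53 and of the unfolded protein response from a list. Members and lists were chosen with earlier results of these data known. Most alike genes are the 3 of highest Pearson correlation over group means (prior count 2), of which 1 is not reported here. Alternatives were DESeq2 size factors, no filter, the DESeq2 1.42.0 Wald test, only the libraries compared, a replicate block and leaving out each library. A correction for GC content and length, that correction with the block, and averages over the shRNA groups were chosen after seeing the data. Deviations of same-numbered libraries were correlated. Between DMSO and senescent cells the numbers paired libraries in OIS with either COPB2 shRNA but not with the control shRNA or after bleomycin. The block is given beside the results only there, and the intervals of the knockdown comparisons are without it.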

Additional observations from a re-analysis of the deposited data

Results flagged for a closer look

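In groups of 4 libraries, 1 library stood far from its group by Dixon's test in 9 of 54 tests of the members. The nominal rate of this test is about 1 in 20, but the 54 tests share libraries. The share of all genes flagged in the same groups was not counted. FAS was at 33.2 CPM in replicate 3 of IMR90 DMSO with COPB2 shRNA 1 (the others at 18.7 to 19.5) and at 32.3 CPM in replicate 3 with shRNA 2 (19.4 to 20.4). CASP8 was at 21.2 CPM in replicate 3 with shRNA 1 (19.04 to 19.2). Replicate 1 of IMR90 DMSO with the control shRNA was highest for TNFRSF10B at 266 CPM (182 to 195) and for TNFRSF1A at 345 CPM (204 to 224), and lowest for CFLAR at 47.1 CPM (65.1 to 66.9). FADD was at 51.9 CPM in replicate 1 with shRNA 1 (41.1 to 42.9). TNFSF10 was at 1.27 CPM in replicate 4 after bleomycin with shRNA 1 (0.372 to 0.513) and at 2.28 CPM in replicate 4 with shRNA 2 (0.534 to 0.592).

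The response in OIS minus that after bleomycin, on the log2 scale in the edgeR fit of all libraries, was called for FAS at -2.99. Among other pathway genes and readouts it was called for NGFR at -3.61, TNFRSF10C at -2.56, MDM2 at -2.02, DEDD at 0.85, CHAC1 at 1.42, TNFRSF10D at 1.61, MLKL at 1.99 and TRIB3 at 2.81.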

How the results depend on the processing

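The number of members called in OIS with the control shRNA, 2, became 5 with a replicate block, 6 with a GC and length correction, 7 with both and 1 with only the libraries compared, and 2 to 4 when 1 library was left out. Calls over all genes rose with them, from 5098 to 7274 with the block, 7496 with the correction and 8889 with both. After bleomycin the 4 became 7 with block and correction. With COPB2 shRNA 1 the 3 in OIS became 7 (block), 6 (correction) and 7 (both), and the 4 after bleomycin became 8 (both). With COPB2 shRNA 2 the 3 in OIS became 5, 7 and 7. The 1 member in the difference between the models became 2 with the correction and 2 with both. No member was called in a knockdown comparison or a difference of knockdown effects under any alternative. No called value changed sign. TNFRSF10A was called in every alternative of both models, and TNFRSF10B and FAS in every alternative after bleomycin. The cause of these changes was not tested.

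Deviations of same-numbered libraries from their group means correlated at -0.778 to 0.965 in ER:RAS (over 0.1 in 35 of 45 pairs, median 0.708, against -0.606 for unlike numbers) and at -0.686 to 0.925 in IMR90 (46 of 60, median 0.49, against -0.151). Every pair passed 0.1 for both COPB2 shRNAs in OIS, whereas the control shRNA in OIS gave -0.778, -0.429 and 0.656, so the block there is only an alternative. Over all genes, the calls in OIS with the control shRNA fell to 2911 with only the libraries compared, and those after bleomycin went from 4614 to 7343 with block and correction. The knockdown calls in OIS, 20 and 32, were 0 and 0 with only the libraries compared, 50 and 70 with the Wald test, 44 and 76 with the block, 34 and 113 with the correction and 171 and 373 with both. After bleomycin the 11 with shRNA 2 became 1 to 144. The differences of knockdown effects in OIS, 0 and 0, became 8 and 12 with the Wald test, 4 and 4 with the block and 6 and 10 with block and correction. With both, the calls in OIS with COPB2 shRNA 1 and 2 went from 5272 to 9146 and from 5280 to 9138, and those after bleomycin with shRNA 1 from 5203 to 7820, while with shRNA 2 they went from 5915 to 3734 with only the libraries compared. The difference between the models went from 3101 to 5024 with the correction and 5967 with both, and that between the lines from 53 to between 2 and 436. Scaling by DESeq2 size factors moved the median of all genes in OIS from -0.08 to 0.05 on the log2 scale. TNFSF10, with 2 to 48 counts, is the member that depth limits most.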
